A study of Drosophila melanogaster with 18 samples.

Results

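Transcription in larvae of the third instar was compared between the second (G2) and the fourth (G4) generation of flies that expressed DNMT3L. The comparison takes the arrays titled Tub-3L G4 and Tub-3L G2, 2 of each, so 4 of the 18 arrays of the series, and all 16322 probe sets. Tub-3L larvae carry a transgene for DNMT3L, a mammalian regulator of DNA methylation that the fly genome lacks, under the ubiquitous tubulin-GAL4 driver, in a homozygous line bred by crossing the progeny of each generation among themselves. In UAS-3L larvae, of G1 and G5, the transgene is present but the driver is absent, and w1118 larvae are of the host strain of the transgene. The other groups were Tub-3L G1, Tub-3L G5, Tub-3L G5P (G5 larvae that showed the phenotype, melanotic tumors) and Tub-3L G20*, from which the driver had been removed, though the labels give G20* in the title and G5 in the description. All groups were raised at 25 °C, and each array holds RNA of a pool of whole larvae. Within a group the labels name 2 biological replicates but not the crosses behind them, and the p-values measure the spread between such pools. Generation therefore cannot be told apart from other differences between the pools of G2 and those of G4. No probe set is named for DNMT3L, and its level could not be checked on the arrays.

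The third instar is the last feeding stage before the pupa. Its salivary glands make the glue that fixes the animal to a surface at pupariation, and its hemocytes, the blood cells, circulate in the hemolymph. The flight muscles, the eyes with their photoreceptors, the egg chambers and the male accessory glands, which make the proteins of the seminal fluid, are organs of the adult fly and form or mature in the pupa. Their transcripts are known markers of the adult.

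Signals are on the log2 scale, so that 1 unit is a doubling. Array medians lay between 6.29 and 6.34 in the 4 arrays and between 6.17 and 6.39 in all 18. The median probe set differed by 0.124 between the Tub-3L G2 arrays, by 0.118 between the Tub-3L G4 arrays and by 0.295 to 0.308 between an array of G2 and one of G4. A probe set is called misregulated where its limma p, adjusted by Benjamini-Hochberg over all probe sets, is under 0.05 and the change is at least 2-fold. Of the probe sets 2392 carry 1 gene symbol, for 2249 genes, and 13930 carry none, so each gene group is seen only through its named members.

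From G2 to G4 1595 probe sets were misregulated, 9.77% of those tested. Of them 1012 were upregulated (6.20%) and 583 were downregulated (3.57%). Without the fold threshold the order turned, with 2613 probe sets higher (16.0%) and 3004 lower (18.4%). The upregulated side held the large changes. At least 4-fold changes were found in 430 probe sets that rose and 31 that fell, at least 16-fold changes in 139 and 0, and 40 probe sets rose at least 64-fold. The median change was 1.77 among the upregulated and -1.26 among the downregulated probe sets, against -0.05 over all probe sets.

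Most upregulated probe sets were dim in G2. Their median signal was 4.09 in G2, against 6.29 over all probe sets, and 593 of the 1012 (58.6%) lay below 4.47, the lower quartile of G2. They reached a median of 6.67 in G4. Of the 139 probe sets that rose at least 16-fold 129 lay below that quartile in G2. Downregulated probe sets had a median of 6.81 in G2 and of 5.42 in G4, and 179 of them (30.7%) ended below 4.56, the lower quartile of G4. At signals this low the fluorescence of the array itself weighs on the value, and a fold change of a dim gene is likely to be too small.

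**Figure D1:**
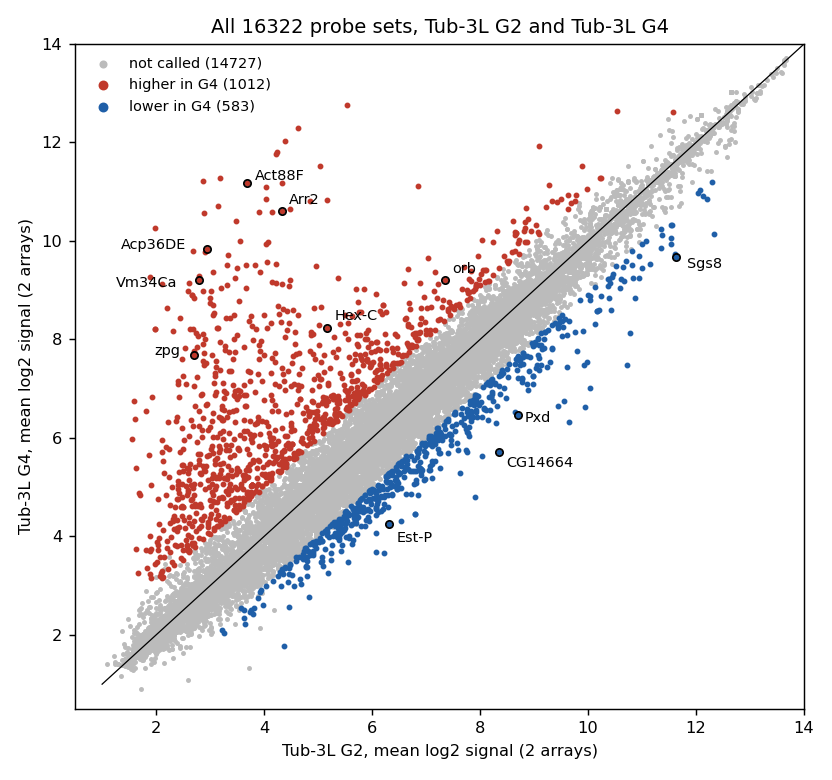
Mean log2 signal of each of the 16322 probe sets in Tub-3L G2 (horizontal axis) and Tub-3L G4 (vertical axis), each over 2 arrays, with the line of equal signal. The 1012 upregulated probe sets (red) reach far above the line from signals under 5 in G2, and the 583 downregulated ones (blue) lie in a band close below it.

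Among named genes 182 of 2249 were upregulated (8.09%) and 69 were downregulated (3.07%), the shares against which the counts of the gene groups are to be read. The largest increase of a named gene was that of Act88F, the actin of the indirect flight muscles. Its signal was 3.61 and 3.77 in the G2 arrays and 11.17 and 11.16 in the G4 arrays, a rise of 7.48 ± 0.25 (SE) on the log2 scale, or 178-fold (limma, adjusted p = 6.88e-10). The 15 largest increases lay between 5.79 and 7.48. In these 15 genes no G2 array exceeded 5.83 and no G4 array fell below 8.92. The arrays of G4 differed by at most 0.14 in any of them, while the G2 arrays of Nplp3, a neuropeptide-like precursor, read 5.83 and 4.24.

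**Figure D2:**
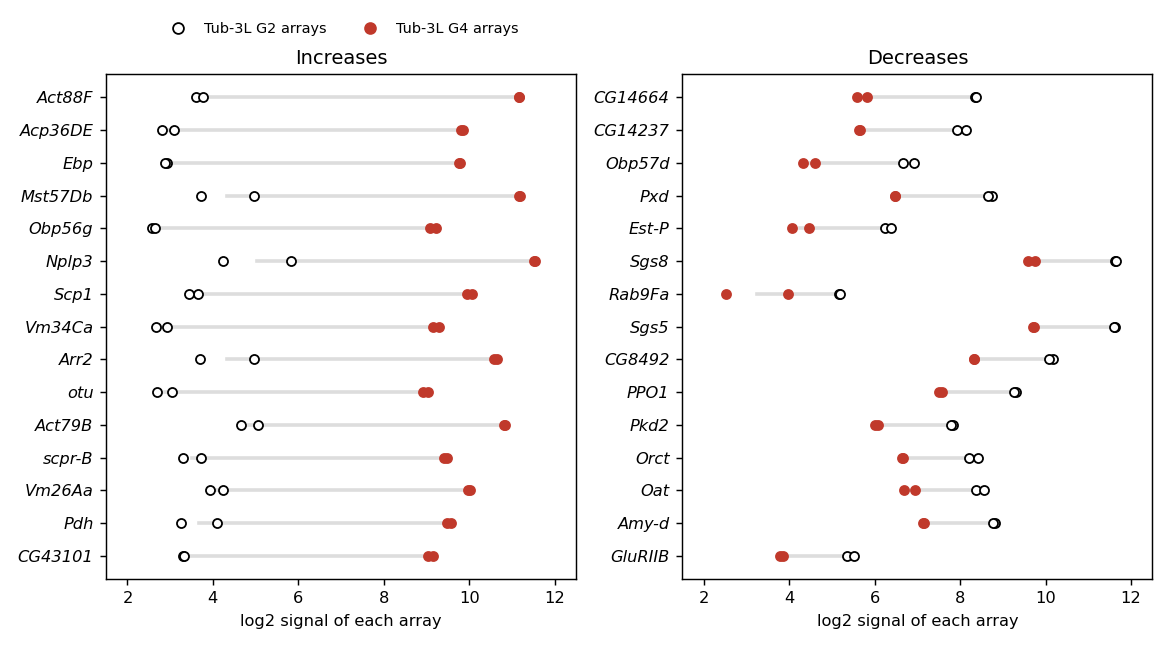
Log2 signal (horizontal axis) on each Tub-3L G2 array (open) and each Tub-3L G4 array (red) for the 15 named genes with the largest increases (left) and the 15 with the largest decreases (right). Grey lines join the group means. The genes were chosen among those whose groups do not overlap, and the increases span far more of the scale than the decreases.

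Genes of the male accessory gland rose without exception. All 13 named members of the list were upregulated, against 8.09% of named genes, with a median change of 3.77 and a range of 1.99 to 6.88. Acp36DE, a seminal fluid protein needed for sperm storage in the female, read 3.09 and 2.81 in G2 and 9.81 and 9.86 in G4, a 118-fold rise (6.88 ± 0.16, adjusted p = 4.66e-11). Mst57Db, a short accessory gland peptide gene, went from 3.71 and 4.95 to 11.17 and 11.19 (115-fold, adjusted p = 2.04e-08). At the low end Acp29AB, another sperm storage protein, went from 2.12 and 2.14 to 4.28 and 3.97 (1.99 ± 0.16, adjusted p = 1.41e-06).

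The ejaculatory duct and bulb, which add further proteins to the semen, were represented by 12 named genes, of which 5 were upregulated and 1 was downregulated, against 8.09% and 3.07% of named genes. Ebp, the bulb protein of the mating plug, rose from 2.92 and 2.89 to 9.76 and 9.77 (117-fold, adjusted p = 2.01e-09). Dup99B, a duct peptide that acts on the female like sex peptide, rose from 2.39 and 2.08 to 5.60 and 5.93 (3.54 ± 0.18, adjusted p = 2.75e-08). The other 3 were the odorant-binding protein genes Obp56e, Obp56f and Obp56g. The mean of Obp56e was 5.06 in G2 and 7.54 in G4, against 6.67 in UAS-3L G1, 6.43 in UAS-3L G5 and 8.03 in w1118. Gld, glucose dehydrogenase, which is also made outside the male tract, was lower, from 8.71 and 8.66 to 7.52 and 7.70 (-1.07 ± 0.12, adjusted p = 1.85e-05). The call of Gld was lost without replicate 1 of G4, and the median change of the list was only 0.24.

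Of 17 named testis genes 1 was upregulated and 1 was downregulated, close to the shares of all named genes (8.09% and 3.07%), with a median change of -0.18. Mst84Dc, a protein of the sperm tail, read 8.47 and 8.60 in G2 and 9.61 and 9.58 in G4 (1.06 ± 0.13, adjusted p = 4.71e-05). The gene sa, which encodes a testis-specific factor of the transcription machinery, was lower (-1.09 ± 0.14, adjusted p = 6.82e-05). The call of Mst84Dc was lost without replicate 1 of G2, and that of sa without replicate 1 of G4 or replicate 2 of G2. The testis tubulin betaTub85D read 9.14 and 9.11 in G2 against 8.79 and 8.81 in G4, a difference of -0.33 ± 0.10 that passed the test (adjusted p = 0.0261) without reaching 2-fold. The median signal of the 17 genes was 6.89 in G2 and 6.61 in G4.

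Genes of female organs also rose. Of 5 named genes for the eggshell and the yolk 4 were upregulated, against 8.09% of all named genes, with a median of 4.60. Vm34Ca, a vitelline membrane protein that follicle cells secrete around the oocyte, went from 2.67 and 2.93 to 9.28 and 9.15 (85.3-fold, adjusted p = 5.21e-11). Vm26Aa, of the same family, rose 60.2-fold (adjusted p = 2.85e-10), dec, a chorion gene, rose 24.2-fold (adjusted p = 9.75e-10) and Vm32E rose 3.44-fold (adjusted p = 0.000307). The fifth gene, Vm26Ac, read 3.01 and 4.06 in G2 and 3.81 and 3.11 in G4, with overlapping groups (-0.08 ± 0.46, adjusted p = 0.922).

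Of the 4 named genes of the female germline 3 were upregulated and 1 was downregulated, against 8.09% and 3.07% of all named genes. The gene otu, needed for the growth of germline cysts, rose from 3.05 and 2.70 to 9.03 and 8.92 (68.6-fold, adjusted p = 1.61e-08). The germline gap junction gene zpg rose from 2.73 and 2.66 to 7.68 and 7.69 (31.7-fold, adjusted p = 1.19e-09), and orb, which controls the translation of oocyte messages, from 7.35 in both arrays to 9.21 and 9.19 (1.85 ± 0.09, adjusted p = 1.74e-08). In contrast bgcn, which acts in early germ cells, was lower (-1.04 ± 0.18, adjusted p = 0.000781). That call was lost when arrays were scaled to RpLP0, a ribosomal protein gene, or when replicate 2 of G2 was left out. The maternal tubulin alphaTub67C, outside the list and chosen after its values were seen, rose from 3.98 and 3.44 to 8.42 and 8.32.

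Both named genes of the piRNA pathway, which silences transposons in the germline, were upregulated (8.09% of all named genes were). The gene del, for a factor at piRNA clusters, read 6.38 and 6.46 in G2 and 8.06 and 8.14 in G4 (1.68 ± 0.09, adjusted p = 5.78e-08), and qin, which acts in the amplification of piRNAs, rose by 1.40 ± 0.14 (adjusted p = 1.06e-05). This pathway is among those the study discusses from these arrays, so the list is not independent evidence of a direction. Among 13 named meiosis genes 2 were upregulated and 1 was downregulated, against 8.09% and 3.07% of all named genes. The synaptonemal complex gene c(2)M rose from 2.29 and 2.07 to 4.86 and 4.83 (6.35-fold, adjusted p = 1.67e-07), and the kinesin-like gene nod rose 3.02-fold (adjusted p = 1.18e-05). The cohesion gene ord was lower (-1.36 ± 0.20, adjusted p = 0.000217), while 10 members were not called.

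**Figure D3:**
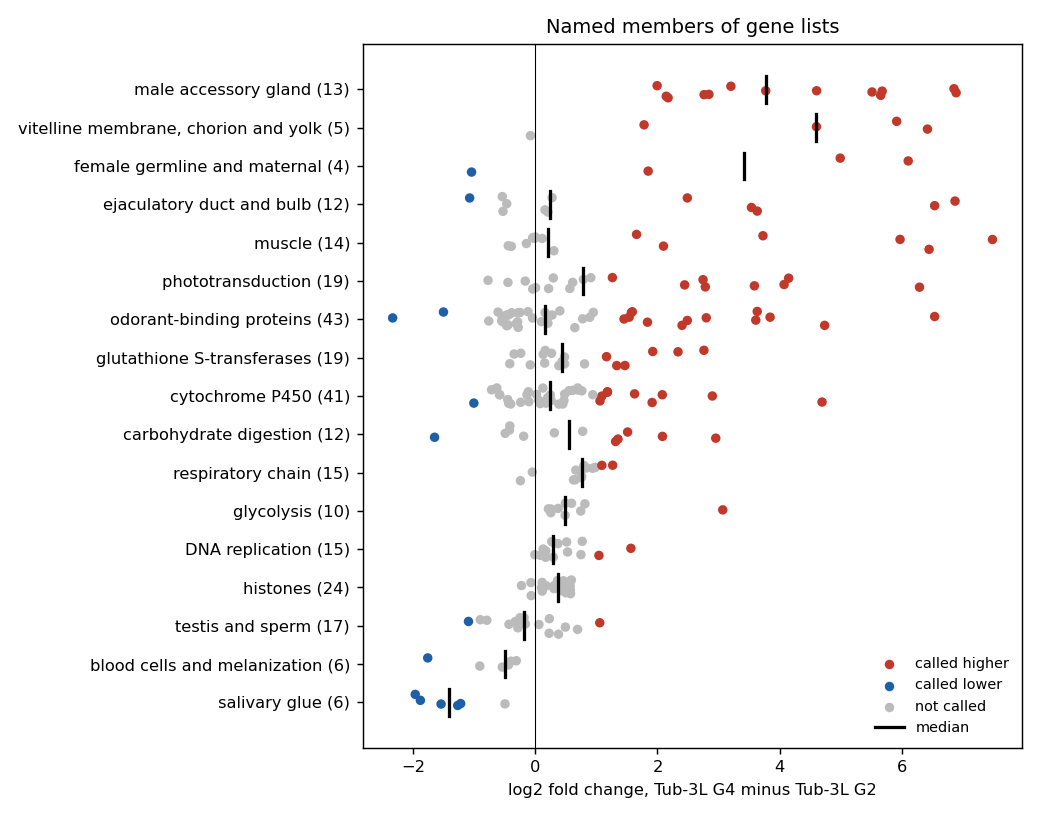
Log2 fold change from Tub-3L G2 to Tub-3L G4 (horizontal axis) of each named member of 17 gene lists (number of members in brackets), with the median of each list as a bar. All 13 accessory gland genes lie right of 1.9, 5 of the 6 glue genes are called lower, and the muscle and eye lists hold both far increases and members near 0.

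Muscle genes split. Of 14 named members 6 were upregulated (8.09% of all named genes were), none was called lower, and 8 were not called, with a median change of 0.21. Besides Act88F the increases comprised Act79B, the actin of adult thoracic and leg muscles, which read 5.06 and 4.65 in G2 and 10.80 and 10.84 in G4 (62.5-fold, adjusted p = 5.46e-05). Scp1, a sarcoplasmic calcium-binding protein, rose from 3.66 and 3.45 to 9.94 and 10.05 (86.9-fold, adjusted p = 3.89e-08), and the troponin C gene TpnC41C from 2.66 and 2.61 to 6.28 and 6.44 (13.2-fold, adjusted p = 1.03e-07). Act87E, an actin of larval muscle, went the other way by less than 2-fold, from 6.47 and 6.50 to 5.95 and 6.15 (-0.44 ± 0.12, adjusted p = 0.0142). It changed by a similar amount, -0.39, from UAS-3L G1 to G5, without the driver. Msp300, a giant nesprin of muscle nuclei that was bright in both groups, changed by -0.39 ± 0.10 (adjusted p = 0.0117). Actin genes are close in sequence and their probe sets may share signal.

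Phototransduction, the cascade by which rhodopsin opens the channels of the photoreceptor, showed 8 of 19 named genes upregulated, against 8.09% of all named genes, and none called lower, with a median of 0.79. Arr2, the main arrestin of the eye, read 4.96 and 3.69 in G2 and 10.58 and 10.65 in G4 (78.0-fold, adjusted p = 2.4e-05). The light-gated channel gene trp rose from 4.44 and 4.42 to 8.58 and 8.56 (4.14 ± 0.42, adjusted p = 1.05e-05), and Arr1 from 4.47 and 4.59 to 8.63 and 8.56 (4.07 ± 0.40, adjusted p = 8.01e-06). The kinase gene inaC rose 6.70-fold (adjusted p = 5.2e-06). Pdh, a dehydrogenase of retinal pigment cells outside the list, rose from 4.10 and 3.25 to 9.57 and 9.48 (57.6-fold, adjusted p = 0.00027). These genes also varied between the arrays of w1118, where Arr2 read 7.88 and 4.92, Pdh 7.03 and 2.96 and Nplp3 9.42 and 5.81, and their standard errors, 0.70 for Arr2 and 0.88 for Pdh, exceed the median of 0.149 over all probe sets.

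Counts for the proteins that bind odorants and for the receptors are given apart. Of 43 named odorant-binding protein genes 13 were upregulated and 2 were downregulated, against 8.09% and 3.07% of all named genes. Obp56g, also made in the male tract, had the largest rise, from 2.58 and 2.63 to 9.21 and 9.07 (92.6-fold, adjusted p = 1.47e-07), followed by Obp19d, from 4.69 and 4.27 to 9.26 and 9.17 (26.6-fold, adjusted p = 1.91e-05). Obp57d, a gene of taste hairs, was lower, from 6.92 and 6.66 to 4.31 and 4.60 (5.03-fold, adjusted p = 4.41e-08), as was Obp99b, which was very bright in G2, from 11.36 and 11.34 to 9.86 and 9.84 (2.83-fold, adjusted p = 9.68e-08). None of 165 named olfactory, gustatory and ionotropic receptor genes was called. Their median signal was 2.55 in G2 and 2.47 in G4, among the lowest on the array, and a change at that level may not be detectable. The co-receptor gene Orco was the closest, with 3.67 and 3.57 against 4.66 and 4.42 (0.92 ± 0.25, adjusted p = 0.0143).

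Larval salivary gland transcripts fell. Of 6 named glue genes 5 were downregulated, against 3.07% of named genes, with a median change of -1.40, and none rose. Sgs8 read 11.63 and 11.64 in G2 and 9.59 and 9.76 in G4, 3.89-fold lower (adjusted p = 9.77e-09). Sgs5 fell from 11.62 and 11.59 to 9.72 and 9.74 (3.67-fold, adjusted p = 6.84e-06) and Sgs3 from 10.98 and 11.02 to 9.41 and 9.51 (2.91-fold, adjusted p = 1.48e-05). Sgs7 and Sgs4 fell 2.33-fold and 2.41-fold. Sgs1 read 7.56 and 7.69 against 7.10 and 7.17 and did not pass the test (-0.49 ± 0.20, adjusted p = 0.074). The gene sage, for a salivary gland transcription factor, chosen after its values were seen, fell by 1.27 on the log2 scale, from 7.21 and 7.28 to 5.83 and 6.12 (adjusted p = 2.66e-05).

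In whole larvae, fewer cells of a type and less RNA per cell cannot be told apart. The summed linear signal of the 6 glue genes was 19999 to 20685 in Tub-3L G1 and 19569 to 20905 in UAS-3L G1. In w1118 it was 17247 to 17424. It fell from 13148 to 13275 in the G2 arrays to 4452 to 4583 in the G4 arrays. Glue transcripts were thus already lower in G2 than in these groups, and still abundant in G4. In the same arrays the summed signal of 3 accessory gland markers rose from 18.3 to 21.1 up to 1352 to 1405, that of 3 vitelline membrane markers from 33.3 to 37.0 up to 1608 to 1687, the signal of Act88F from 12.2 to 13.7 up to 2296 to 2305 and that of Arr2 from 12.9 to 31.1 up to 1526 to 1602. Both testis markers together read 625 to 626 in G2 and 528 to 536 in G4. Markers of adult organs of both sexes and the glue genes therefore changed in the same 2 arrays. The part of the cells behind these markers in the other changes was not tested. The markers chosen for the larval fat body, the larval cuticle and the pupa have no named probe set and were not analysed here. The cuticle lists held 1 named larval gene and 1 named pupal and adult gene. Lcp65Ag2, the larval gene, fell by less than 2-fold (-0.79 ± 0.15, adjusted p = 0.00132), and its mean was only 4.08 in Tub-3L G1. Acp1, the other gene, was upregulated 3.65-fold (adjusted p = 2.14e-06), as were 8.09% of all named genes.

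Among blood cell genes a single one was called, downwards (3.07% of all named genes were). PPO1, a prophenoloxidase of crystal cells needed for melanization, read 9.32 and 9.27 in G2 and 7.58 and 7.49 in G4, 3.38-fold lower (adjusted p = 6.11e-08). The list has 6 named genes, whose median change was -0.49 and of which 3 passed the test downwards without regard to fold (18.4% of all probe sets did). Pxn, peroxidasin of plasmatocytes, read 7.41 and 7.35 against 6.96 and 6.73 (-0.54 ± 0.13, adjusted p = 0.00822). In the UAS-3L pair without the driver (G5 minus G1) Pxn changed by -0.49, close to its change here, and PPO1 by -0.43. Of 10 immune peptide and recognition genes 2 were upregulated (8.09% of all named genes were), BomT1, an immune-induced peptide (1.04 ± 0.24, adjusted p = 0.00461), and nec, a serpin that restrains the Toll pathway (1.03 ± 0.09, adjusted p = 2.94e-06). Both lay at the fold threshold, and neither was called without replicate 2 of G2 or with arrays centred on their median.

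The largest decreases of named genes lay between -2.65 and -1.62, far short of the increases. CG14664, of unknown role here, read 8.34 and 8.37 in G2 and 5.60 and 5.82 in G4, 6.26-fold lower (adjusted p = 1.24e-08), and CG14237 fell 5.24-fold (adjusted p = 2.18e-08). Pxd, a peroxidase, fell from 8.75 and 8.65 to 6.47 in both arrays (4.69-fold, adjusted p = 2.54e-07), and Est-P, a carboxylesterase, fell 4.14-fold (adjusted p = 2.84e-06). The organic cation transporter gene Orct, the ornithine aminotransferase gene Oat, Pkd2, a calcium channel gene of the polycystin family, and GluRIIB, a glutamate receptor subunit of the larval neuromuscular junction, each fell 3.07-fold to 3.38-fold. Rab9Fa was the least certain, with 5.16 and 5.20 in G2 but 2.52 and 3.98 in G4 (adjusted p = 0.00911), and was no longer called without replicate 1 of G4. Amy-d, an alpha-amylase with a near-identical copy from which the probes may not tell it apart, fell from 8.81 and 8.76 to 7.14 and 7.13 (3.13-fold, adjusted p = 0.000158). Its mean was 8.93 in Tub-3L G1 but 5.49 to 6.15 in the groups without the driver, so that G4 remained above them.

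For metabolic genes the counts stand against 8.09% of all named genes upregulated and 3.07% downregulated. Of 12 genes of carbohydrate digestion 5 were upregulated, Amy-d alone was downregulated and 6 were not called. The maltase gene Mal-A7 rose from 4.38 and 4.33 to 7.39 and 7.22 (7.74-fold, adjusted p = 7.79e-09). Of 41 cytochrome P450 genes 31 were not called, 9 were upregulated and 1, Cyp4c3, was downregulated at the threshold, a call lost without replicate 2 of either group. Cyp313a1 rose from 2.80 and 2.93 to 7.53 and 7.58 (25.8-fold, adjusted p = 1.56e-08) and Cyp6a20 from 5.40 and 5.42 to 8.28 and 8.33 (7.45-fold, adjusted p = 3.28e-08). Of 19 glutathione S-transferase genes, which conjugate toxic compounds, 6 were upregulated, none was called lower and 13 were not called. GstE9 went from 6.13 and 6.24 to 8.64 and 8.41 (5.05-fold, adjusted p = 1.42e-08).

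Genes of energy metabolism changed by small amounts. Of 15 named respiratory chain genes 13 passed the test upwards (16.0% of all probe sets did), with a median change of 0.76, but only Cyt-c1 (2.13-fold, adjusted p = 1.46e-06) and SdhC (2.41-fold, adjusted p = 0.000971) reached 2-fold. Of 10 glycolytic genes 7 passed upwards with a median of 0.49. Hex-C, a hexokinase, stood apart in that list, with 5.23 and 5.12 in G2 and 8.27 and 8.21 in G4 (8.38-fold, adjusted p = 7.65e-08). Of 24 named histone genes, which are near-identical copies, 16 passed upwards with a median of 0.37 and none was called, while their median in the UAS-3L pair without the driver (G5 minus G1) was 0.42. Among 15 DNA replication genes 7 passed upwards and 2 were called higher (8.09% of all named genes were), Orc1, the large subunit of the origin recognition complex (2.96-fold, adjusted p = 2.13e-05), and Psf2, whose call was lost without replicate 1 of either group. Of 5 mitosis genes 2 were upregulated, against 8.09% of all named genes. APC7, of the anaphase-promoting complex, rose from 3.68 and 3.80 to 7.17 and 7.16 (10.7-fold, adjusted p = 1.27e-07), and gwl, the Greatwall kinase, rose 3.51-fold (adjusted p = 6.54e-08).

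Regulators of development were represented by few named genes. Among 7 genes of the response to ecdysone, the hormone of molting, ftz-f1 (2.32-fold, adjusted p = 4.91e-06) and Hr38 (2.78-fold, adjusted p = 0.000122), both nuclear receptors, were upregulated (8.09% of all named genes were). The receptor gene EcR itself read 9.32 and 9.22 in G2 and 8.44 and 8.43 in G4, a decrease under 2-fold (-0.84 ± 0.10, adjusted p = 5.21e-05), and chinmo, a regulator of temporal identity, fell by a similar amount (-0.87 ± 0.14, adjusted p = 0.000464). Without the driver, from UAS-3L G1 to G5, EcR changed by -0.33 and chinmo by -0.66. Scr, the only named Hox gene, changed by -0.73 ± 0.16 (adjusted p = 0.00367). None of 2 Polycomb group genes, 1 Trithorax group gene and 2 genes of histone methylation enzymes was called. The demethylase gene Kdm4A read 7.31 and 7.22 against 7.75 and 7.85 (0.54 ± 0.12, adjusted p = 0.00379). Kdm4A also rose in UAS-3L larvae without the driver, from 6.91 and 6.86 in G1 to 7.36 and 7.44 in G5. The study discusses the Hox, Polycomb and Trithorax families from these arrays, so these lists are not independent evidence either.

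**Figure D4:**
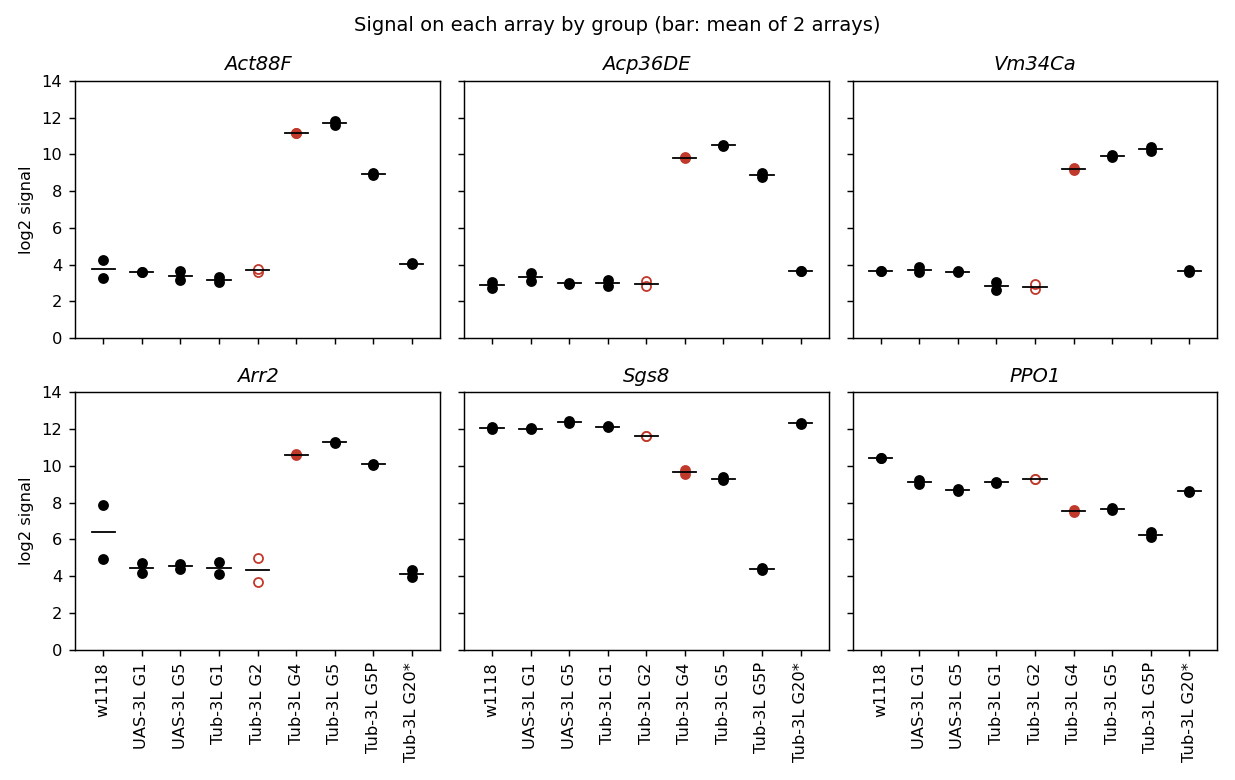
Log2 signal (vertical axis) on each array for 6 genes in the 9 groups, with the mean of 2 arrays as a bar, Tub-3L G2 as open and Tub-3L G4 as filled red circles. Act88F, Acp36DE and Vm34Ca are below 4.3 in every group without or before G4 and above 8.7 in G4, G5 and G5P, and Sgs8 and PPO1 are lowest in G5P.

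The levels of the same probe sets in the other groups place the step in the series, with G2 and G4 given as a description because they chose the probe sets. The 1012 upregulated probe sets had a median signal of 4.11 in the first Tub-3L generation and of 4.09 in G2. The median then stood at 6.67 (G4), 6.98 (G5) and 6.71 (G5P). In the groups without the driver it was 4.23 in UAS-3L G1, 4.18 in UAS-3L G5, 4.38 in w1118 and 4.23 in Tub-3L G20*. The 583 downregulated probe sets had medians of 6.54, 6.81, 5.42, 5.19 and 4.29 from Tub-3L G1 to G5P, and of 6.26 to 6.51 in the groups without the driver. All 15 genes with the largest increases were higher in G5 than in G4, and 12 of them were lower in G5P than in G4. The exceptions in G5P were Vm34Ca, Vm26Aa and otu, all female genes. Vm34Ca read 10.17 and 10.41 in G5P, against 9.28 and 9.15 in G4, whereas Act88F read 8.97 and 8.91, against 11.17 and 11.16. The glue gene Sgs8 read 9.37 and 9.26 in G5 but 4.33 and 4.42 in G5P.

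Arrays that were no part of the step gave 2 further comparisons. Between Tub-3L G5 and UAS-3L G5 1992 probe sets were higher (12.2%) and 1728 were lower (10.6%). Of the 1012 probe sets upregulated from G2 to G4 839 were higher there too, which is 82.9% of the step and 42.1% of the second list, and 40 were lower. Of the 583 downregulated 315 were lower, 54.0% of the step and 18.2% of the second list, and 3 were higher. Between Tub-3L G5P and UAS-3L G1 2486 were higher (15.2%) and 2238 were lower (13.7%). They shared 703 of the upregulated probe sets (69.5% of the step and 28.3% of the second list) and 381 of the downregulated ones (65.4% and 17.0%), with 39 and 1 going the opposite way.

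Change between generations without the driver was measured in UAS-3L larvae, between G1 and G5. The labels do not name the crosses. In this pair and in the step from Tub-3L G2 to G4, generation cannot be told apart from other differences between the pools. In that pair 280 probe sets were misregulated (1.72%), 164 upwards and 116 downwards. The difference between the changes was tested as a contrast over the 4 groups, although the generations spanned are not the same. The change in Tub-3L was higher for 1212 probe sets (7.43%) and lower for 1030 (6.31%). Of the 1012 upregulated probe sets 861 (85.1%) were called in that contrast in the same direction, and of the 583 downregulated 469 (80.4%). The contrast contains the same G2 and G4 arrays that chose these probe sets, so that this overlap is largely built in and is a description. A call could be lost there through the change in the UAS-3L pair or through the larger standard error of a contrast of 4 groups. Of the 30 genes with the largest changes, chosen on the same arrays, Rab9Fa (-1.94 ± 0.69, adjusted p = 0.0529) and Amy-d (-0.98 ± 0.33, adjusted p = 0.039) were not called there. Rab9Fa changed by only 0.01 in the UAS-3L pair, and its standard error was 0.49 in the step and 0.69 in the contrast. Act88F changed by -0.19 in the UAS-3L pair (adjusted p = 0.67) and its difference was 7.67 ± 0.35 (adjusted p = 2.71e-08). For del, which rose by 0.39 in the UAS-3L pair, the difference was 1.29 ± 0.13 (adjusted p = 1.82e-05), and for qin it was 0.97 ± 0.20, under 2-fold (adjusted p = 0.00298).

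**Figure D5:**
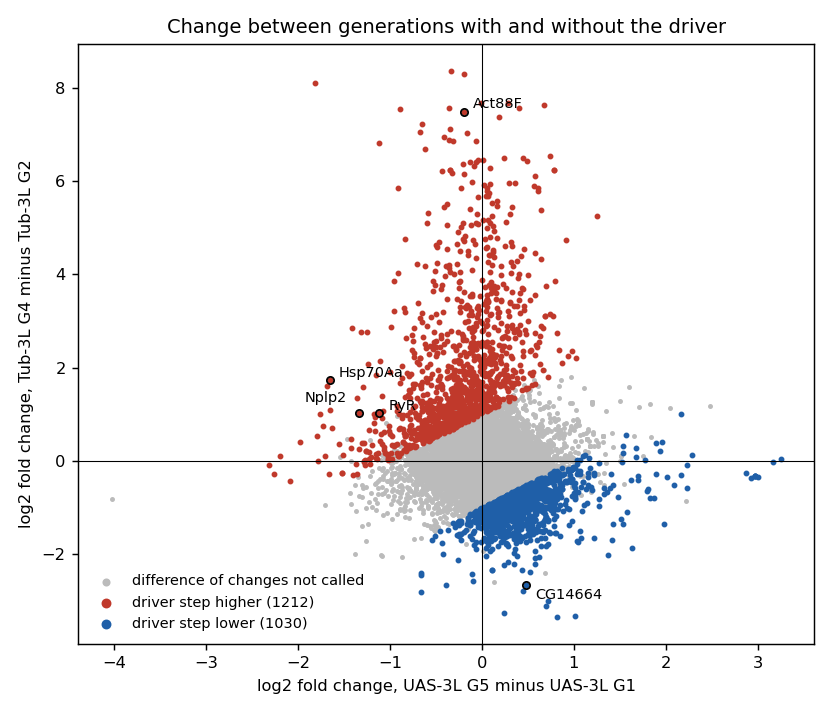
Log2 fold change of each probe set between Tub-3L G2 and G4 (vertical axis) against that between UAS-3L G1 and G5 (horizontal axis), with the 1212 probe sets whose change was called higher (red) and the 1030 called lower (blue) in Tub-3L. The tall red column near 0 on the horizontal axis holds genes such as Act88F that rose with the driver and changed by -0.19 without it.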

How the data were processed

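RNA of whole larvae of the third instar was measured on Affymetrix Drosophila Gene 1.1 ST arrays, with 18 arrays in 9 groups of 2. The authors normalised the deposited log2 values by RMA at the gene level in Affymetrix Expression Console 1.3, and made their own comparisons in the Transcriptome Analysis Console. RMA brings all arrays to one distribution, so that a shift of all transcripts cannot be seen, and it compresses changes of dim genes. The number of arrays limits the precision. For the genome build of the annotation: not given in the sources used here. A second deposited table, with 9 columns of averages, was not used because its columns could not be tied to groups.

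The values of 16322 probe sets were used without further scaling or filter. All 18 arrays entered a single limma model (limma 3.58.1, R 4.3.3) of 9 group means, with 9 residual and 2.71 prior degrees of freedom, and p-values were adjusted with Benjamini-Hochberg for each contrast. The methods were tested on simulated data. Probe sets with exactly 1 symbol in the platform annotation were named, each symbol was found to be current in RefSeq, and of several probe sets of a gene the one with the highest mean over all arrays was used.

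The genes named are the 15 largest increases and the 15 largest decreases among called genes with separate arrays, plus up to 5 members with the smallest p from each of 39 lists, of which 35 have a named member. The comparison, lists and rule were chosen with earlier results of these data known. Further genes are named as examples, and are said to be so where they lie outside a list. A cyclophilin gene, a serotonin transporter gene and a tRNA synthetase gene that name patterns had caught were taken out of their lists. Alternatives were other sets of arrays, other scalings, a filter on dim probe sets, a moderated test with an intensity trend, a block for replicate numbers, the methods' t-test and leaving out each array.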

Additional observations from a re-analysis of the deposited data

Results flagged for a closer look

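A change that differed between larvae with and without the driver was found for 1212 probe sets that changed more upwards, and 1030 that changed more downwards, from Tub-3L G2 to G4 than from UAS-3L G1 to G5 (limma contrast of the 4 groups). Of all probe sets 911 were called in this contrast but not in the step itself.

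In 33 probe sets both pairs were misregulated, in opposite directions, against 30 in the same direction. The named genes among the 33 were 3, each up with the driver and down without it. Hsp70Aa, a heat shock gene with near-identical copies, read 7.17 and 6.65 in G2 and 8.69 and 8.60 in G4 and fell by 1.65 in UAS-3L, a difference of 3.38 ± 0.64 (adjusted p = 0.00173). Its rise from G2 to G4 was not called without replicate 1 of G4 or replicate 2 of G2. For Nplp2, a neuropeptide-like precursor, the changes were 1.04 and -1.33 and the difference was 2.37 ± 0.10 (adjusted p = 1.63e-08). RyR, the ryanodine receptor of muscle, changed by 1.03 and -1.11, a difference of 2.14 ± 0.22 (adjusted p = 2.05e-05). The rise of RyR from G2 to G4 fell under 2-fold without replicate 2 of G4 (0.89) or of G2 (0.94), and with arrays centred on their median it was 0.98 for RyR and 0.99 for Nplp2, both then not called. The difference itself was called for all 3 genes under each alternative run.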

How the results depend on the processing

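The count of 1595 misregulated probe sets was 1585 with only the compared groups, 1592 without Tub-3L G5 and G5P, 1615 with arrays centred on their median, 1553 with arrays scaled to RpLP0, 1182 without the dimmest 25% and 1558 to 1621 when 1 array was left out. No change of a named gene turned its sign in a called result under the alternatives. The count was 252 (182 higher, 70 lower) among named probe sets and 5617 (2613 and 3004) without the fold threshold, where lower calls outnumber higher ones, opposite to the order with it. For the contrast with UAS-3L these were 344 (226 and 118) and 4988 (2208 and 2780, the order again turned), and 2146 to 2276 when 1 array was left out. The methods' t-test gave 1466 calls and 520 (361 and 159) after Benjamini-Hochberg. Scaling moved the split of higher and lower calls, to 962 and 653 after centring and to 1116 and 437 after RpLP0. The replicate numbers share no deviation (r = -0.0232 between G2 and G4, -0.0643 to 0.0394 over 36 pairs of groups), and the fit with the replicate block called 1596 (1010 and 586) and 2230 for the contrast.

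Scaled to RpLP0, the single downregulated duct, testis, female germline and cytochrome P450 genes were not called (0 each), and 4 respiratory chain genes were upregulated in place of 2. Without the dimmest 25% of probe sets, which held many of these genes, upregulated genes numbered 6 for the accessory gland, 3 for the duct and bulb, 1 for meiosis and 5 for odorant-binding proteins. With 1 array left out, between 0 and 1 gene was called lower in the duct, testis, female germline and cytochrome P450 lists, and between 0 and 1 was called higher in the testis list. Of 329 values for the 30 genes with the largest changes 328 kept their call, the exception being Rab9Fa without replicate 1 of G4, where the call was lost at -1.20.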

Other observations

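Of 15 gene families looked up by name after values had been seen, some, such as the actins and tubulins, have members in the lists. The 4 families described here held 3 or 4 calls each and the others 0 to 2. Of all named genes 8.09% were upregulated and 3.07% downregulated. Of 5 named metallothionein genes, whose proteins bind metals, 3 were upregulated. MtnE read 3.61 and 3.29 in G2 and 5.56 and 5.75 in G4 (2.21 on the log2 scale, adjusted p = 4.64e-07), and MtnD read 8.94 and 8.82 against 10.46 and 10.44. The means of MtnE, MtnD and MtnB were 5.65, 10.45 and 5.58 in G4 but 3.89, 8.42 and 3.48 in Tub-3L G5. In w1118 they were 4.38, 9.82 and 6.70. Of 8 named CheA genes, a family expressed in chemosensory organs of the adult, 4 were upregulated, with CheA7a from 2.26 and 2.71 to 6.24 and 6.16 (adjusted p = 1.91e-06). All 3 scpr genes, which are close copies of each other, were upregulated, by 2.88 to 5.94. Among 8 genes for prolyl 4-hydroxylase subunits, which modify collagen, PH4alphaNE2 and PH4alphaNE3 were upregulated (1.11 and 1.68) and PH4alphaMP and PH4alphaPV were downregulated (-1.23 and -1.06). PH4alphaMP and PH4alphaPV also changed by -0.46 and -0.83 from UAS-3L G1 to G5, without the driver. In the contrast of the 4 groups both increases were called and neither decrease was.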
